A study of Homo sapiens with 3 samples.

Results

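The cells described here are the least cycling VCaP cells, chosen in the same way with and without enzalutamide (ENZ), so that expression could be compared with proliferation held low on both sides. VCaP is a prostate cancer cell line, and ENZ is an antiandrogen given against prostate cancer. VCaP parental cells received the vehicle, 0.1% DMSO, for 48 h, and VCaP–ENZ48 cells received 10 µM ENZ for 48 h. Each group was 1 Drop-seq library, in which droplets pair single cells with barcoded beads and each captured mRNA is counted by a unique molecular identifier (UMI). Cells with at least 500 UMIs, at least 300 genes and at most 25% mitochondrial UMIs were kept, which gave 997 vehicle and 947 drug cells. For each of them the share of UMIs from 12 proliferation genes was taken (TOP2A, MKI67, CENPF, UBE2C, CCNB1, PCNA, MCM3, MCM4, MCM5, MCM7, TYMS and HMGB2). The 250 vehicle cells of lowest share formed the vehicle group, and the drug group was every drug cell with a share no higher than the highest of those 250, which was 829 cells. Together they were 1079 of 1944 kept VCaP cells. Because each condition was a single library, differences could not be set against a spread between replicates, and none was tested.

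An antiandrogen blocks the hormone signal that luminal prostate cells depend on for secretion, lipid synthesis and growth, and prostate cancer cells leave the cell cycle when that signal is withdrawn. A whole culture therefore mixes the expression of each state with the number of cells in it. Cholesterol and fatty acid synthesis is switched on by the SREBP transcription factors, which are held in the endoplasmic reticulum by INSIG proteins when sterols are plentiful and reach the nucleus when sterols are short. INSIG1 is itself an SREBP target, so it is read together with the enzymes.

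The share that chose the cells was the measured value behind the groups, and what follows on the 12 genes is a description. The least cycling cells were 25.1% of vehicle cells and 87.5% of drug cells. The last vehicle cell inside the threshold had a share of 0.0725%, and the first outside had 0.0726%. In the drug library the same neighbours had 0.0719% and 0.0736%. The rule bounded the share from above but did not equalise it. The median share was 0.0413% in the vehicle group and 0.0199% in the drug group, and 2 vehicle and 132 drug cells had no UMI of the 12 genes. TOP2A, which untangles DNA, was at 48.1 and 12.5 UMIs per 1e+06 UMIs of the group (CPM) in the summed vehicle and drug cells, against 1347 and 771 CPM in the other cells of each library. MKI67 was at 21.1 and 2.97 CPM, and PCNA, the replication clamp, at 72.4 and 52.3 CPM. MCM5, a subunit of the replicative helicase, lay the other way, at 3.37 and 5.86 CPM.

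**Figure D1:**
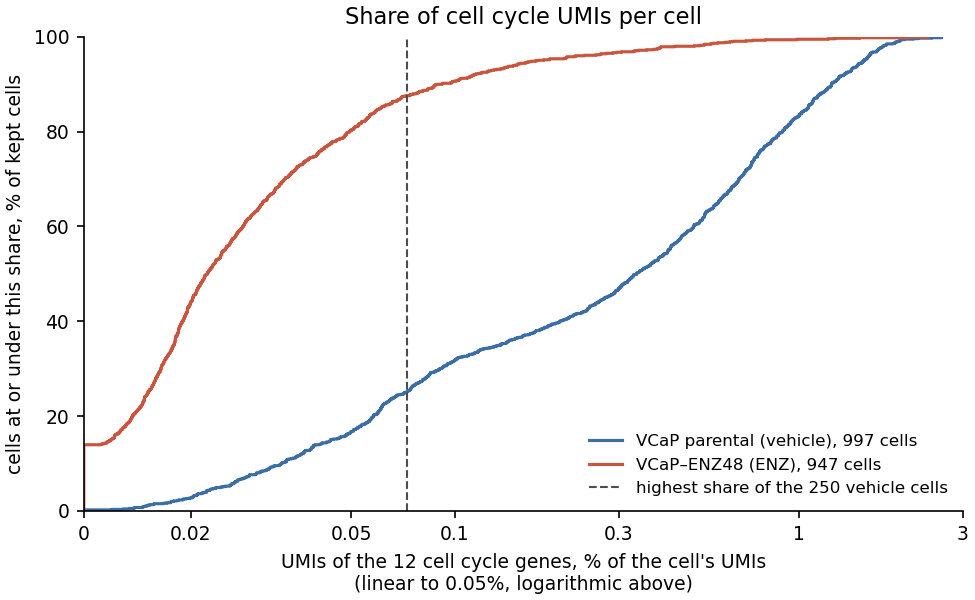
Cumulative percent of kept VCaP cells (vertical axis) at or under a share of UMIs from the 12 proliferation genes (horizontal axis, percent of the cell's UMIs, linear at first and then logarithmic), for the vehicle library in blue and the drug library in red, with the highest share of the 250 vehicle cells dashed. In the vehicle library 250 of 997 cells and in the drug library 829 of 947 cells lie at or under it, and the drug curve starts from 132 cells at a share of 0.

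The cells were chosen by their measured share alone, so depth was free to differ. The vehicle group held 4447476 UMIs and the drug group 12805031. Median depth per cell was 16079.5 UMIs (4056 genes) in the vehicle and 12096 UMIs (3469 genes) in the drug group, and the shallowest cells had 6687 and 1300 UMIs. Mitochondrial transcripts took 6.53% and 7.48% of UMIs. Barcodes whose last position was read as N made up 86.0% and 86.7% of the cells. The libraries shared 1 barcode, which belonged to neither group. All 4 luminal epithelial markers (KRT8, KRT18, EPCAM and CDH1) were detected, and they summed to 952 CPM in the vehicle and 1004 CPM in the drug group. The 4 basal markers summed to 1.35 and 0.781 CPM, the 9 blood cell markers to 4.05 and 5.94 CPM with PTPRC at 0 in both, and the 4 endothelial markers to 0.675 and 0 CPM. Fibroblast markers summed to 20.0 and 26.6 CPM, nearly all of it LUM. The 4 genes used to tell LNCaP from VCaP summed to 9.44 and 21.9 CPM, with PPP2R2A at 0 in both groups and MME at 6.75 and 19.3 CPM (1.39 as a log2 ratio of CPM + 1, drug over vehicle).

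Ratios below are log2 ratios of CPM + 1 in the drug over the vehicle group, and a gene counts as higher or lower when it differs at least 2-fold. Intervals are exact 95% intervals that cover counting error only and leave out the + 1. Among the 7635 genes whose mean over the groups reached 10 CPM, 537 were at least 2-fold higher (7.03%) and 203 at least 2-fold lower (2.66%), and the median ratio was −0.08. Scaling by the median of ratios in place of the UMI total gave 445 higher and 290 lower. Leaving mitochondrial and ribosomal protein genes out of the total moved the median of all genes by 0.11. When all kept cells of the libraries were compared, 633 of 7717 genes were higher (8.20%) and 511 were lower (6.62%). That comparison shares these cells, so its values are set beside the present ones and nothing is read from their likeness.

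The excess of higher over lower genes lay largely outside the protein-coding genes. By gene class, 198 of 6873 protein-coding genes were higher (2.88%) and 187 were lower (2.72%). Counts of the gene lists below are read beside these shares or those of all genes tested. Pseudogenes, which are mostly reinserted copies of processed transcripts, gave 190 higher of 250 tested and 0 lower, with a median ratio of 1.33. Copies of ribosomal protein genes made up 152 of these 190, out of 172 tested, with a median ratio of 1.40. The minimum was a mean over both groups, and the median mean of the pseudogenes tested was 18.9 CPM. A pseudogene low in the vehicle group could thus be tested only through its level in the drug group. How many were was not counted, so these counts are a description. A further 129 higher genes had a symbol with no match in the annotation used here. Pseudogenes together took 0.829% of UMIs in the vehicle group and 1.98% in the drug group. The median cell had 0.818% and 1.78%, and the difference was also present in the other cells of each library, at 0.735% and 1.66%. Among barcodes ending in a base the medians were 0.863% and 1.88%.

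A processed copy and its source gene share most of their sequence, so the counts of either are uncertain. EEF1A1, the elongation factor that brings tRNA to the ribosome, was at 275 and 746 CPM (ratio 1.43). RPS3A reached 186 and 484 CPM, and RPSA 685 and 1579 CPM. These source genes were at least 2-fold higher in the drug group. Across the 105 protein-coding genes with at least 10 named pseudogenes, 7 were at least 2-fold higher and the median ratio was 0.13, against −0.09 for the 5474 without any. The 81 cytosolic ribosomal protein genes tested had a median of 0.29, with 6 higher and 0 lower. Of all genes tested 7.03% were higher and 2.66% lower. The part of read assignment in these values was not tested.

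**Figure D2:**
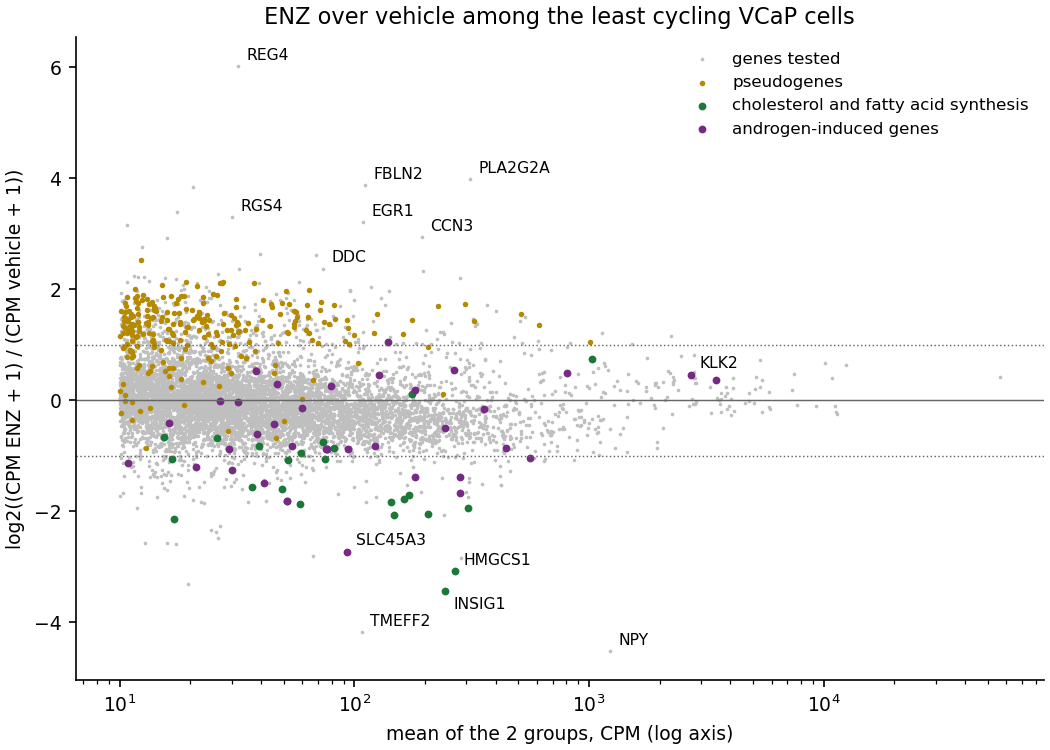
Log2 ratio of CPM + 1, drug over vehicle, against the mean CPM of both groups on a log axis, 1 point per gene tested, with pseudogenes in gold and 2-fold lines dotted. Cholesterol genes are green and androgen-induced genes purple. Of 250 pseudogenes 190 lie above the upper line, and the largest falls (NPY, TMEFF2, INSIG1, HMGCS1) and the largest rises (REG4, PLA2G2A, FBLN2) stand apart from it.

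Genes of cholesterol and fatty acid synthesis were lower in the drug group. Of 30 listed genes 25 were tested, 16 were at least 2-fold lower and 0 were higher, beside 2.66% and 7.03% of all genes tested. Over protein-coding genes the shares were 2.72% lower and 2.88% higher. Their median ratio was −1.56, against −0.08 for all genes. The 2 lowest were INSIG1 and HMGCS1. INSIG1 (GRCh38 chr7:155297776-155310235), which anchors the SREBP complex in the endoplasmic reticulum, was at 446 CPM (95% interval 426 to 466) in the vehicle group and 40.5 CPM (37.0 to 44.1) in the drug group, a ratio of −3.43 (−3.60 to −3.32). HMGCS1 (chr5:43287470-43313512), an early enzyme of the mevalonate pathway, was at 481 CPM (461 to 502) and 56.0 CPM (52.0 to 60.2), a ratio of −3.08 (−3.23 to −2.98). One drug cell held 112 of the 717 HMGCS1 UMIs of its group (15.6%), and the HMGCS1 ratio ran from −3.53 with cells of 10000 to 20000 UMIs to −2.27 with barcodes ending in a base.

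Promoters of the list were read to show what these genes share at the sequence level, since the rule used no sequence. Windows from 250 bases before to 50 bases after the gene start came from RefSeq on GRCh38.p14, and 27 windows matched 19 of the 25 genes tested. The CCAAT box was searched as the letters CCAATC. Its reverse strand was searched as GATTGG. A match was in 16 of these 27 windows (59.3%). It was in 18.8% of the 8534 windows of genes tested and in 15.1% of all 35116 windows. Windows of the same gene can overlap and count a box again. By gene, 13 of 19 held a match, against 1433 of the 5881 genes tested that had a window. The 13 include TM7SF2 and SC5D, which were not lower. The ER chaperone list held a match in 18 of 36 windows (50%), and the androgen-induced list in 9 of 42 (21.4%). The sterol regulatory element TCACNCCAC (reverse GTGGNGTGA) was in 1 of the 27 windows, against 1.13% of all windows. These are matches of letters and not sites shown to be bound. Below are 3 of the windows, chosen because they hold the box and their genes stand at different steps of the pathway. The windows of INSIG1, ELOVL6 and SCD and the other HMGCS1 window held no match of CCAATC or GATTGG. Those of INSIG1 and SCD did hold the shorter ATTGG or CCAAT, which was not searched. The windows are in lower case from 5′ to 3′ on the gene's strand, with matches of CCAATC or GATTGG in capitals, and shorter runs of the box's letters are not marked.
HMGCS1 (chr5:43313363-43313662, minus strand): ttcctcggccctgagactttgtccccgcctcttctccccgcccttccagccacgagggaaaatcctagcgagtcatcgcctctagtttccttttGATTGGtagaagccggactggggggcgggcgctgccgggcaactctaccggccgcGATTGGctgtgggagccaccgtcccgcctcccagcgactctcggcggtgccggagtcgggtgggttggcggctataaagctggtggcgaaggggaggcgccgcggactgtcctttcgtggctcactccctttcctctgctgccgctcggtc
MSMO1 (chr4:165327419-165327718, plus strand): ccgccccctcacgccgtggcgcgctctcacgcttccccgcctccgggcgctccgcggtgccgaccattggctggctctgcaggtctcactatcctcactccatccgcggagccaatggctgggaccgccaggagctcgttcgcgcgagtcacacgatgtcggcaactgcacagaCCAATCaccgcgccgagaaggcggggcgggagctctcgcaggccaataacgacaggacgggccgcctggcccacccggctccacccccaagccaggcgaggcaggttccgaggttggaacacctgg
FDPS (chr1:155308616-155308915, plus strand): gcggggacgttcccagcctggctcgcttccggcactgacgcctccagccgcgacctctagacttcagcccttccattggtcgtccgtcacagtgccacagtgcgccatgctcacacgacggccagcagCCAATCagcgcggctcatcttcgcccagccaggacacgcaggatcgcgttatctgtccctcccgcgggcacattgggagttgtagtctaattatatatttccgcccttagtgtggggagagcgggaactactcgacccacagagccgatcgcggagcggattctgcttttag
In the HMGCS1 window the boxes began 156 and 101 bases before the gene start, in the MSMO1 window 76 bases and in the FDPS window 122 bases before it.

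Along the pathway, several enzymes of the mevalonate and squalene steps were at least 2-fold lower. IDI1, the isomerase that activates the isoprenoid unit, was at 332 and 79.2 CPM (−2.05). FDPS, which joins these units to farnesyl diphosphate, was at 252 and 73.0 CPM (−1.77). Both exceeded a 2-fold difference. FDFT1, squalene synthase, was at 225 and 62.3 CPM (−1.83), and SQLE, the epoxidase that follows it, at 485 and 126 CPM (−1.94). ACAT2, which supplies the starting acetoacetyl-CoA and was not on the list, was at 176 and 48.7 CPM (−1.83).

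Of the later sterol steps, MSMO1, which removes methyl groups from the ring, was at 239 and 56.4 CPM (−2.06). EBP, the sterol isomerase, was at 74.2 and 23.8 CPM (−1.60). LSS, which closes the ring, was at 50.1 and 28.0 CPM (−0.82) and CYP51A1, which removes a methyl group from it, at 78.7 and 40.1 CPM (−0.95), so neither reached 2-fold. TM7SF2 and SC5D were not lower. TM7SF2, a sterol reductase, was at 769 CPM (744 to 795) and 1288 CPM (1268 to 1308), a ratio of 0.74, and SC5D, a desaturase, was at 168 and 183 CPM (0.12). TM7SF2 alone made up 1288 of the 2495 CPM to which the list summed in the drug group, so the sum understates the difference of the other members (4664 CPM in the vehicle group).

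Fatty acid enzymes were lower by different amounts. SCD, which makes monounsaturated fatty acids, was at 262 and 79.8 CPM (−1.70), and ELOVL6, an elongase, at 93.1 and 24.6 CPM (−1.88). FASN, fatty acid synthase, was at 106 and 57.8 CPM (−0.86), and ACACA, which makes its substrate, at 92.9 and 54.7 CPM (−0.75), so neither reached 2-fold. Of the transcription factors, SREBF2 was at 19.1 and 11.7 CPM (−0.66, interval −1.10 to −0.30), and SREBF1 was below the minimum level, at 5.85 and 5.86 CPM.

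The lower level was spread over the drug cells rather than held by some of them. Summed over the 25 genes tested, the median cell had 40.8 UMIs per 10000 in the vehicle group and 22.8 in the drug group. Of the 829 drug cells 90.1% (exact binomial interval 87.9 to 92.1%) lay below the vehicle median, and 58.3% below the 10th percentile of vehicle cells. Such intervals, here and below, take the cells of 1 library as independent draws and the vehicle median as fixed. They cover no spread between libraries. The other cells of the libraries had medians of 46.4 (vehicle) and 22.4 (drug), so the difference was also there between the remaining cells, whose median shares of the 12 genes were 0.534% and 0.145%. When cells were thinned to 2000 UMIs each, which 25 drug cells did not reach, INSIG1 was seen in 54.8% of vehicle and 6.72% of drug cells, and in 93.6% and 27.9% without thinning. No cell type lacking these genes was in the libraries, so no background share can be set beside these. Over all kept cells the list median was −1.64, beside −1.56 in the least cycling cells.

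**Figure D3:**
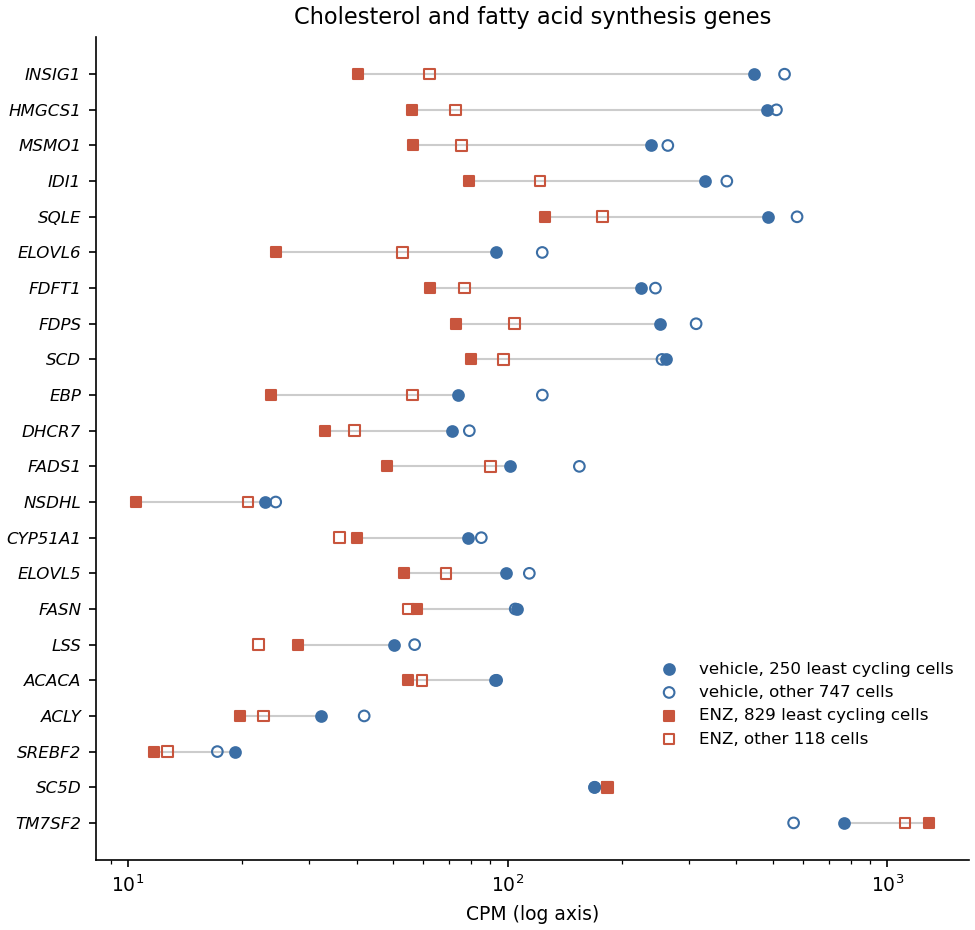
CPM (log axis) of cholesterol and fatty acid synthesis genes that were tested, with vehicle as blue circles and ENZ as red squares, filled for the least cycling cells and open for the other cells of each library, and gray lines joining the filled points. The filled drug points lie left of the vehicle points except for TM7SF2 and SC5D, and INSIG1 (446 and 40.5 CPM) and HMGCS1 (481 and 56.0 CPM) have the widest gaps.

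Androgen-induced genes did not move as 1 group. Of 35 tested, 10 were at least 2-fold lower and 1 higher, beside 2.66% and 7.03% of all genes tested. Over protein-coding genes the shares were 2.72% and 2.88%. The median ratio of the list was −0.60. SLC45A3 (chr1:205657851-205680509), a prostate solute carrier, was at 163 CPM (151 to 175) and 23.7 CPM (21.2 to 26.6), a ratio of −2.73. FKBP5, a co-chaperone of steroid receptors, was at 61.4 and 21.2 CPM (−1.49), and TMPRSS2, a membrane serine protease, at 42.9 and 17.5 CPM (−1.25). All 3 were lower by more than 2-fold. PMEPA1, which dampens TGF-beta signalling, was at 262 and 99.8 CPM (−1.38), and ACSL3, which activates long-chain fatty acids, at 430 and 134 CPM (−1.67).

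The most abundant androgen-induced genes lay on the other side. KLK2, the kallikrein 2 protease, was at 2299 CPM (2255 to 2344) and 3162 CPM (3131 to 3193), a ratio of 0.46, and ACPP, prostatic acid phosphatase, was at 3048 and 3941 CPM (0.37). KLK4 was at 216 and 315 CPM (0.54). KLK3, below the minimum level, was at 8.77 and 10.7 CPM, and reads shared with KLK2 make its counts uncertain. HPGD, which breaks down prostaglandins, was the 1 gene past 2-fold, at 90.6 and 188 CPM (1.05). It was within 2-fold in 8 of the 20 alternatives tried, some of which leave gene ratios unchanged, and at 0.80 with 100 vehicle cells. As a result the list summed to 11054 CPM in the vehicle and 11307 CPM in the drug group, while its median gene was lower. The median cell had 108 and 106 UMIs of the list per 10000, and 52.6% of drug cells (49.1 to 56.0%) lay below the vehicle median.

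Among vehicle cells, the least cycling already carried more of these transcripts than the rest. KLK2 was at 1334 CPM in the other vehicle cells and 2121 CPM in the other drug cells, against 2299 and 3162 CPM in the least cycling ones. Over all kept cells, the ratio of KLK2 was 0.97, beside 0.46 here. SLC45A3 was at 76.4 CPM in the other vehicle cells, and its ratio was −2.02 over all cells beside −2.73 here. ERG, an ETS transcription factor that VCaP expresses from the TMPRSS2 locus, was at 165 CPM (154 to 178) and 59.3 CPM (55.1 to 63.6), a ratio of −1.46, beside −0.87 over all cells. Its other cells were at 87.4 CPM in the vehicle and 38.1 CPM in the drug library. TMPRSS2 had −1.25 here and −0.64 over all cells. For SLC45A3, ERG and TMPRSS2 the ratio between least cycling cells was thus the more negative value, and for KLK2 the smaller one. Among barcodes ending in a base, which left 35 vehicle and 110 drug cells, ERG was at −0.87, TMPRSS2 at −0.34 and FKBP5 at −0.71.

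Of the androgen-lowered genes, 3 of 6 were tested, with 2 higher, beside 7.03% of all genes tested. OPRK1, an opioid receptor, was at 34.2 and 96.1 CPM (1.47), and CAMK2N1, an inhibitor of a calcium-dependent kinase, at 142 and 307 CPM (1.11). FOLH1, the prostate-specific membrane antigen, was at 409 and 722 CPM (0.82). MYC, a growth transcription factor, was at 459 and 491 CPM, a ratio of 0.09 that was −0.0042 under median-of-ratios scaling, beside 0.50 over all cells.

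Among cell cycle regulators other than the 12 genes, CDKN1A differed in sign between the least cycling cells and all kept cells. CDKN1A, an inhibitor of cyclin-dependent kinases, was at 19.3 CPM (15.5 to 23.9) in the vehicle and 45.1 CPM (41.5 to 49.0) in the drug group, a ratio of 1.18 (0.89 to 1.57). The other cells were at 69.6 CPM in the vehicle and 104 CPM in the drug library, so over all kept cells the ratio was −0.18. Over the alternatives tried, the CDKN1A ratio between least cycling cells ran from 0.96 to 2.11, so it was not always past 2-fold. Without thinning, 22.8% of cells in the vehicle group and 28.3% in the drug group had a UMI of CDKN1A. CDKN1B, a second inhibitor, was at 25.4 and 35.4 CPM (0.46), with −0.22 over all cells. In both libraries the least cycling cells had less of either inhibitor than the other cells. CDKN1C was at 3.37 and 4.06 CPM, below the minimum level. CCND1, the D-type cyclin, was at 599 and 346 CPM (−0.79), and its partner CDK4 at 181 and 150 CPM (−0.26). Of 7 inhibitors, D cyclins and RB family genes tested, 1 was higher and 0 were lower, beside 7.03% and 2.66% of all genes.

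Phase genes outside the rule also differed between the selected groups. Of 25 G2M genes tested, 8 were lower and 0 higher, beside 2.66% and 7.03% of all genes tested. Their median was −0.66, beside −2.07 over all cells. BIRC5, needed for chromosome segregation, was at 27.9 and 3.83 CPM (−2.58), CDK1, the mitotic kinase, at 19.3 and 5.39 CPM (−1.67) and TPX2, a spindle factor, at 22.7 and 7.42 CPM (−1.49). Of 26 S phase genes, 4 were lower and 1 higher, with a median of −0.50, beside −1.41 over all cells. FEN1, a replication nuclease, was at 22.9 and 8.43 CPM (−1.34), whereas TIPIN, a fork-stabilising protein, was at 21.8 and 80.7 CPM (1.84). The selection therefore left a smaller cell cycle difference than the whole libraries had, not none. With the 250 of all kept drug cells nearest in share to the vehicle cells, whose median share was 0.0413%, the medians were −0.51 (G2M) and −0.36 (S), while the cholesterol list stayed at −1.47 and the androgen-induced list at −0.63. With the 250 nearest in depth, at a median of 16067 UMIs, the cholesterol list was at −1.39.

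Of 26 endoplasmic reticulum chaperone and folding genes tested, 5 were at least 2-fold lower, 0 were higher and 21 were within 2-fold. Of all genes tested 2.66% were lower and 7.03% higher, and of protein-coding genes 2.72% and 2.88%. Their median was −0.62, against −0.08 for all genes. SDF2L1 was at 77.3 and 28.7 CPM (−1.40), and MANF, a secreted stress-response factor, at 224 and 89.5 CPM (−1.31). SEC61B, a subunit of the translocation channel, was at 433 and 197 CPM (−1.14). HSPA5, the main chaperone of the compartment, was at 1008 and 633 CPM (−0.67), and XBP1, the transcription factor that induces such genes, was at 55.1 and 98.0 CPM (0.82). In the other cells HSPA5 was at 1457 CPM in the vehicle and 1760 CPM in the drug library, so the sign of its difference in summed UMIs depended on the cells compared. Summed over the list, the median cell had 88.1 UMIs per 10000 in the vehicle and 54.2 in the drug group, and 86.4% of drug cells (83.8 to 88.6%) were below the vehicle median. In the other 747 vehicle and 118 drug cells the medians were 101 and 81.9, also lower in the drug library. Their 90th percentiles were 154 and 202, and the list summed there to 10692 and 11258 CPM.

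**Figure D4:**
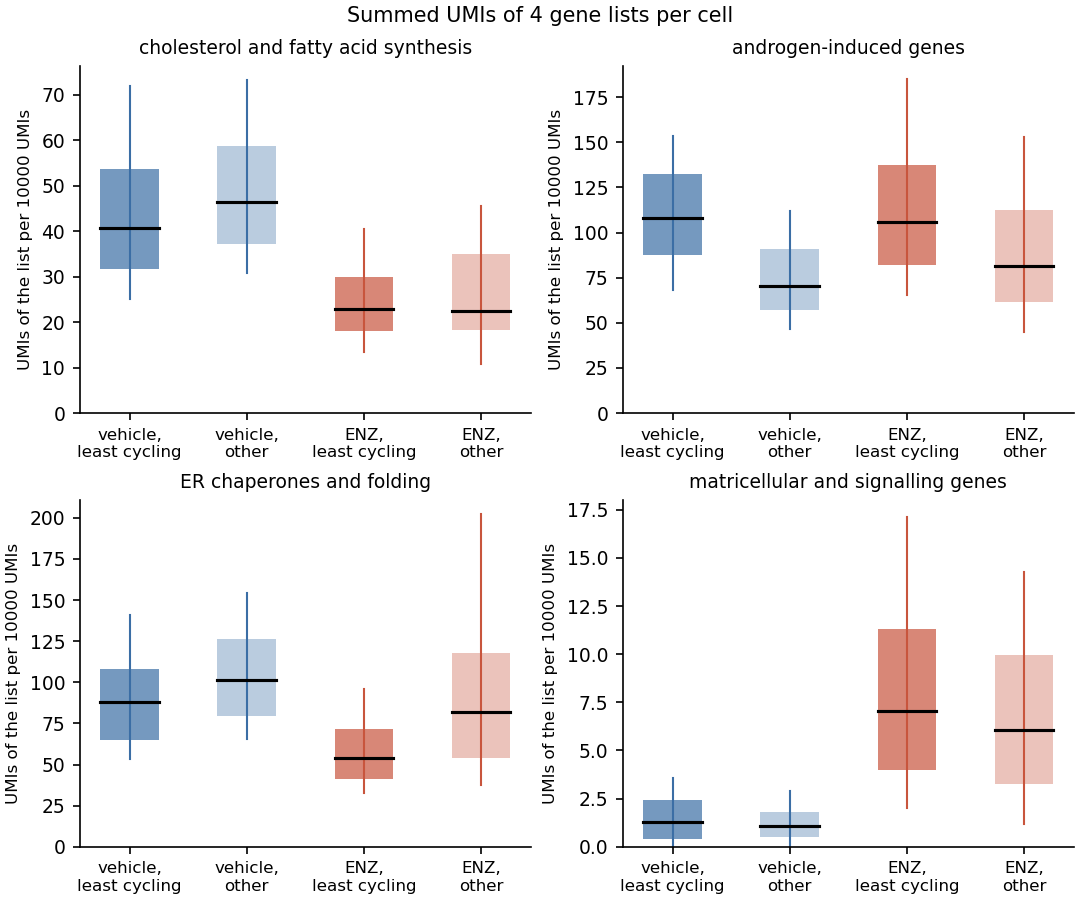
UMIs of 4 gene lists per 10000 UMIs of a cell (vertical axes), in the least cycling and the other cells of the vehicle (blue) and ENZ (red) libraries, with boxes from the 25th to the 75th percentile, lines from the 10th to the 90th and the median in black. The drug boxes of cholesterol and fatty acid synthesis lie below the vehicle boxes in both cell states, while those of androgen-induced genes overlap in the least cycling cells (medians 108 and 106).

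Most proteasome and respiratory chain genes lay within 2-fold, 33 of 35 and 75 of 79. Of the 35 proteasome subunits 2 were lower and 0 higher, beside 2.66% of all genes lower, with a median of −0.61, and PSMA7 was at 1179 and 555 CPM (−1.08). Of the 79 nuclear respiratory chain subunits tested 4 were lower and 0 higher, with a median of −0.54, and ATP5MC3, a subunit of the ATP synthase rotor, was at 878 and 412 CPM (−1.09). The mitochondrially encoded transcripts, which include rRNA and tRNA genes, had a median of 0.18 over 21 tested. MT-CO1, a subunit of complex IV, was at 7879 and 12466 CPM (0.66). MT-ND4L, a subunit of complex I, was at 1262 and 988 CPM (−0.35). LDHA, the lactate dehydrogenase subunit, was at 342 and 129 CPM (−1.40), while of 21 glycolysis and hypoxia genes 2 were lower and 1 higher.

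Outside lipid synthesis, the largest falls were led by a secreted and a membrane protein. NPY (chr7:24284188-24291862), a neuropeptide, was at 2356 CPM (2311 to 2402) in the vehicle group and 102 CPM (96.3 to 107) in the drug group, a ratio of −4.52 (−4.62 to −4.45). After thinning it was seen in 80.8% of vehicle and 11.9% of drug cells (96.8% and 34.5% without thinning). TMEFF2, a transmembrane protein with EGF-like domains, was at 205 and 10.4 CPM (−4.18). APOD, an apolipoprotein, was at 388 and 92.2 CPM (−2.06), MCCC2, a subunit of the leucine-degrading carboxylase, at 500.5 and 68.6 CPM (−2.85), and ARHGEF26, a guanine nucleotide exchange factor, at 117.8 and 15.9 CPM (−2.81). ABRACL was at 55.5 and 14.9 CPM (−1.83). For these genes the other cells of each library lay on the same side, with NPY at 2170 and 182 CPM there. MAOA, which oxidises monoamines and lies below the naming minimum, was at 44.7 and 8.51 CPM (−2.27).

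The largest rises included genes of the gastrointestinal lineage. PLA2G2A (chr1:19975431-19980416), a secreted phospholipase, was at 35.98 CPM (30.6 to 42.0) in the vehicle group and 586 CPM (573 to 599) in the drug group, a ratio of 3.99 (3.80 to 4.26). After thinning it was seen in 6.80% of vehicle and 43.3% of drug cells (27.2% and 79.6% without thinning). A1CF, an RNA-editing cofactor of liver and intestine, was at 6.52 and 30.8 CPM (2.08), and TSPAN8, a tetraspanin, at 376 and 681 CPM (0.85). The trefoil peptides differed in sign, with TFF1 at 10.1 and 24.1 CPM (1.17) and TFF3 at 46.5 and 22.6 CPM (−1.01). AGR2, a folding factor of mucus-producing cells, was at 543 and 536 CPM (−0.02). Of the 7 genes tested 4 were higher and 1 lower, beside 7.03% and 2.66% of all genes tested. A further 13 of the 20 listed genes found were below the minimum. REG4 and A1CF were tested only through their level in the drug group. The list was chosen with earlier results of these data known, so these counts are a description.

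REG4 (chr1:119794017-119811580), a secreted lectin of the gut, had 0 UMIs in the vehicle group, which allows up to 0.675 CPM at 3 counts over the group. The drug group held 819 UMIs, or 64.0 CPM (59.7 to 68.5), which was at least 94.8-fold higher. These UMIs came from few cells. A single cell held 273 of them (33.3%), 2 cells held most of them, and 87 of 829 cells (10.5%) had any. The other vehicle cells were at 2.39 CPM. The value is therefore set by a small number of drug cells, and it was a log2 ratio of 3.18 among cells of 10000 to 20000 UMIs and 7.45 with the 250 drug cells nearest in share.

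Matricellular and signalling genes had the highest list median with several members tested, 2.14 over 7 genes. Of these 4 were higher and 0 lower, beside 7.03% and 2.66% of all genes tested. A further 11 of the 18 listed genes found were below the minimum. RGS4, at 4.72 CPM in the vehicle group, reached the minimum only through the drug group. The list was chosen with earlier results of these data known, so its median and counts are a description. FBLN2, an extracellular matrix glycoprotein, was at 13.3 CPM (10.1 to 17.1) and 209 CPM (201 to 217), a ratio of 3.88. CCN3, a secreted matricellular protein, was at 43.9 CPM (37.9 to 50.4) and 343 CPM (333 to 353), a ratio of 2.94. RGS4, which shortens G-protein signals, was at 4.72 and 55.5 CPM (3.30), and IGFBP3, which binds insulin-like growth factors, at 20.9 and 95.4 CPM (2.14). The remaining members were not past 2-fold, with THBS1 at 40.0 and 53.7 CPM (0.42) and CCN1 at 27.0 and 25.1 CPM (−0.10, and 0.38 with the drug cells nearest in share). In thinned cells CCN3 was seen in 10.0% of vehicle and 42.9% of drug cells (38.4% and 78.0% without thinning).

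Immediate early genes went both ways. Of 15 tested 6 were higher and 1 lower, beside 7.03% and 2.66% of all genes tested. EGR1, a zinc-finger transcription factor, was at 20.5 CPM (16.5 to 25.1) and 198 CPM (190 to 206), a ratio of 3.21, IER2 at 45.6 and 190 CPM (2.03) and JUNB at 15.5 and 45.0 CPM (1.48). FOS was at 1014 and 827 CPM (−0.29), JUN at 572 and 294 CPM (−0.96) and KLF6 at 248 and 107 CPM (−1.20). FOS and JUN, the most abundant members, were thus below their vehicle level while EGR1 was far above it. This list includes genes that cell dissociation can induce, and its part in the result was not tested.

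Of 10 neuroendocrine genes tested 3 were higher and 1, NPY, was lower, beside 7.03% and 2.66% of all genes tested. DDC, the aromatic amino acid decarboxylase, was at 23.2 and 124 CPM (2.37), SCG2, a secretogranin, at 7.19 and 19.0 CPM (1.29) and CHGB, a chromogranin, at 88.6 and 196 CPM (1.14). With 100 vehicle cells 1 gene of the list was higher, at a list median of 0.14, and with the share taken from the phase lists 2 were, and over the alternatives SCG2 fell as low as 0.80 and CHGB as low as 0.96. SYP was at 15.3 and 16.2 CPM (0.08) and UCHL1 at 117 and 108 CPM (−0.12). Of 20 lysosome and autophagy genes 3 were higher and 0 lower, among them CTSH, a cathepsin, at 56.9 and 225 CPM (1.96). Of 18 luminal keratin and adhesion genes 3 were higher and 0 lower, with JUP, a junction plaque protein, at 14.6 and 33.7 CPM (1.15) and GRHL2, an epithelial transcription factor, at 32.8 and 69.3 CPM (1.06). SAT1, which acetylates polyamines for export, was at 170 and 470 CPM (1.46), the only 1 of 11 polyamine genes tested past 2-fold.

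Other large rises among genes of at least 50 CPM were outside the groups above. CRISPLD1, a secreted protein, was at 64.8 and 329 CPM (2.33), PCP4, a calmodulin regulator, at 100.5 and 464 CPM (2.19), and MYRIP, which links melanosome transport to myosin, at 9.89 and 54.8 CPM (2.36). AIDA was at 18.4 and 119 CPM (2.62). SHROOM1, a cytoskeletal protein, was at 10.3 and 69.1 CPM (2.63), and ZFP36L2, which promotes mRNA decay, at 14.2 and 64.4 CPM (2.11). These last 2 had ratios of 1.23 and 0.91 among barcodes ending in a base, so ZFP36L2 was not past 2-fold there. MYRIP, AIDA, SHROOM1 and ZFP36L2 reached 50 CPM in the drug group only.

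**Figure D5:**
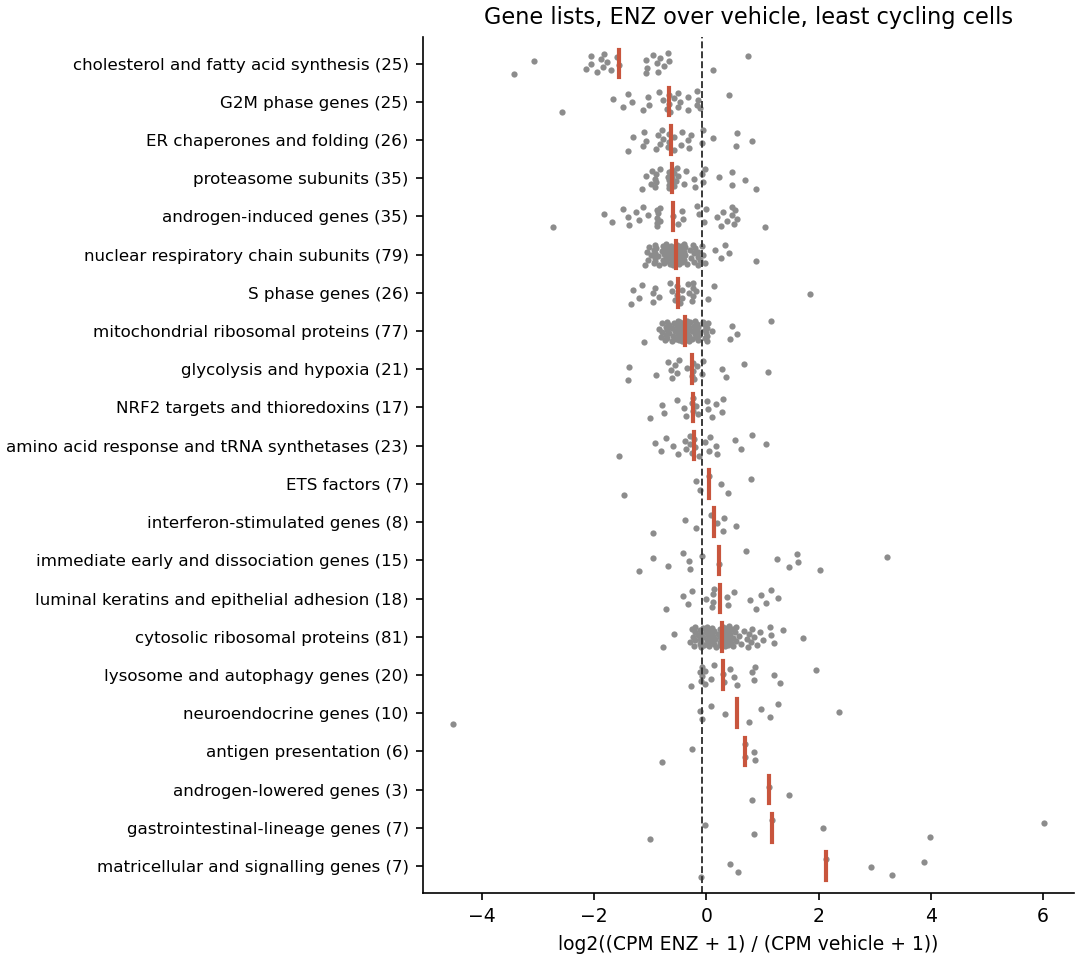
Log2 ratios of CPM + 1, drug over vehicle, of the genes of each list in the least cycling cells, with genes as gray dots, the list median as a red bar, the median of all genes tested as a dashed line and the number tested in parentheses. Cholesterol and fatty acid synthesis has the lowest median (−1.56) and matricellular and signalling genes the highest (2.14).

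The gene lists given with the study were read in the same cells. Of all genes tested 7.03% were higher and 2.66% lower, and of protein-coding genes 2.88% and 2.72%. The marker list of its persistent clusters had 386 genes tested, with 57 lower, 11 higher and a median of −0.43, beside −0.87 over all cells. The list of initial clusters had a median of −0.04 over 130 genes with 9 higher and 8 lower, and that of ENZ-induced clusters −0.15 over 141 genes with 6 higher and 18 lower. PROSGenesis had 9 higher and 0 lower of 50, with a median of 0.23. Of the hallmark lists, mTORC1 signaling had 7 lower and 0 higher of 29 (median −0.63), and MYC targets V1 had 9 lower and 1 higher of 183 (median −0.36).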

How the data were processed

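The deposited values were unnormalised UMI counts, with genes in rows and Drop-seq cell barcodes in columns. The authors made them with STAR, Picard and the Drop-seq tools on GRCh38 with Gencode annotation, expecting 1000 cells per sample. For their own analysis the authors also filtered cells on genes, molecules and mitochondrial reads, and those limits were not used here. A gene absent from a file was counted as 0, and doublets were not identified.

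Cells were filtered and grouped as stated in the report. UMIs were summed per group and scaled to CPM, and log2 ratios used CPM + 1. Sums carry exact Poisson, ratios exact conditional and shares exact Clopper-Pearson 95% intervals, which cover counting error only. The floor of a count of 0 was 3 counts. Genes averaging 10 CPM or more were tested against a 2-fold limit without a p-value, since each group had 1 library. The members and the 38 gene lists were chosen with earlier results of these data known. Named genes were the 15 largest and 15 smallest ratios where either group reached 50 CPM, chosen genes such as KLK2 and CDKN1A, and the 3 largest and smallest of each list. EEF1A1, ACPP, MAOA and further enzymes were added after their values were seen. Gene classes and positions came from Gencode 44, a later version than the authors used. Some items are not reported here. The steps were tested on simulated data. Alternatives covered the choice of cells, scaling, pseudocount and minimum level. TMM factors came from edgeR 4.0.16 in R 4.3.3. The rest was computed in Python 3.11.15 (scipy 1.17.1, pandas 2.3.3, numpy 2.4.6), and matplotlib 3.10.9 drew the figures.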

Additional observations from a re-analysis of the deposited data

How the results depend on the processing

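In all, 20 alternatives were tried, 3 of them chosen after seeing the data: the 250 drug cells nearest in share, the 250 nearest in depth, and protein-coding genes only. The drug group held 271 cells when only cells of 10000 to 20000 UMIs were used, 110 with barcodes ending in a base (35 vehicle cells, with the share limit unchanged) and 250 in both nearest settings. The number of genes at least 2-fold higher, 537 in the report, was 828 with the total taken without mitochondrial and ribosomal protein genes, 878 with a minimum of 5 CPM, 129 with a minimum of 50 CPM and 198 with protein-coding genes only. The number at least 2-fold lower, 203 in the report, was 324 with barcodes ending in a base and 83 with a minimum of 50 CPM. Several ratios changed sign. SC5D was at −0.015 with 100 vehicle cells and −0.25 with barcodes ending in a base, PCNA at 0.13 with 100 vehicle cells and 0.14 with the drug cells nearest in share, and MYC at −0.0042 with the median of ratios. With barcodes ending in a base THBS1 was at −0.093 and EHF at 0.000508. Ratios near 0 also crossed it over the alternatives, from −0.19 to 0.20 for AGR2, −0.70 to 0.38 for CCN1, −0.087 to 0.97 for KLK3, −0.99 to 1.78 for MCM5, −0.80 to 0.34 for SREBF1, −0.32 to 0.68 for SYP and −0.22 to 0.27 for UCHL1. With a minimum of 50 CPM the neuroendocrine list had a median of −0.081 and the antigen presentation list −0.78. The cause of these changes was not tested, apart from the settings that change which cells or genes enter. The median of the cholesterol and fatty acid list ran from −1.74 to −1.08 and that of androgen-induced genes from −0.83 to −0.46. No paired analysis was possible because vehicle and drug had a single library apiece. With 1 library a side, a difference in handling between libraries cannot be told apart from the drug.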

Other observations

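Among genes outside the report's groups, SOX4, a transcription factor, was at 453 CPM in the vehicle and 144 CPM in the drug group (−1.65), and GOLIM4, a Golgi membrane protein, at 294 and 92.4 CPM (−1.66). Of 23 genes of the amino acid response and tRNA synthetases tested, 1 was higher and 1 lower, beside 7.03% and 2.66% of all genes. ATF4, the transcription factor of that response, was at 89.9 and 189 CPM (1.07), and ATF3, which it can induce, at 45.0 and 14.7 CPM (−1.55). PHGDH, the first enzyme of serine synthesis, was at 78.7 and 121 CPM (0.62).

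Of 6 antigen presentation genes tested the median ratio was 0.68, but the most abundant member went the other way. B2M, the light chain of class I molecules, was at 816 and 474 CPM (−0.78), while HLA-B was at 9.44 and 17.8 CPM (0.85) and HLA-C at 14.4 and 27.1 CPM (0.87). Among interferon-stimulated genes ISG15 was at 60.9 and 31.1 CPM (−0.95). TXN, the thioredoxin that reduces protein disulfides, was at 2450 and 1450 CPM (−0.76), and the 17 NRF2 and thioredoxin genes tested had a median of −0.24. The long noncoding RNA MALAT1 was at 48139 and 64513 CPM (0.42). The 77 mitochondrial ribosomal protein genes tested had a median of −0.38 with 1 higher and 1 lower. Of all genes tested 7.03% were higher and 2.66% lower. Of 7 ETS factors tested, ERG was the 1 lower gene and 0 were higher, and of 6 BCL2 family genes none passed 2-fold, with MCL1 at 20.0 and 37.3 CPM (0.87). With 100 vehicle cells 2 of the 6 were higher, and MCL1 was at 1.15 with the drug cells nearest in share.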
